A study of Mus musculus with 22 samples.

Results

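Mitochondrial ribosomal proteins are encoded in the nucleus, made in the cytosol and imported into mitochondria, where they assemble with the 12S and 16S RNAs of the mitochondrial genome into the ribosome that makes the core subunits of the respiratory chain. The large subunit (names beginning Mrpl) forms peptide bonds and feeds the new chain to the inner membrane, and the small subunit (Mrps) reads the mRNA. Many of the proteins are homologues of bacterial ribosomal proteins and the others are found only in mitochondria, so a T cell that expands its respiratory capacity has to supply both kinds. Genes were taken as members by name, Mrpl or Mrps followed by a number, with pseudogene names left out, and had to reach 10 scaled counts in 2 or more libraries. Of 78 such genes 77 qualified, 48 named Mrpl and 29 named Mrps, among 14327 genes tested. The one that did not was Mrpl53, a large subunit protein that reached 6.76 scaled counts at most.

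The cells were P14 CD8+ T cells, which carry a transgenic T cell receptor for a viral (LCMV) peptide, sorted from C57BL/6 mice aged 6 to 12 weeks, with 5 mice behind each biological replicate. VHL-deficient cells, which lack the protein that marks hypoxia-inducible factors for degradation, were set against wild-type (WT) cells. VHL-deficient and WT tumor cells of day 11 had 3 libraries per genotype. VHL-deficient and WT tumor cells of day 7 were sorted as Trm, as nonTrm or unsplit, and day 7 spleen cells were the last setting, each with 2 libraries per genotype, which makes 22 libraries in 10 groups. Trm is commonly short for tissue-resident memory T cell, but the labels do not spell it out. The tumor type, the event of day 0, the sort markers of Trm cells and the driver of the Vhl deletion were not stated in the sources used here. The library titles end in a letter and a number, which were read here as a plate position, though the labels name no plate. By this reading, Trm and nonTrm libraries lay in plate column 1 and day 7 spleen and unsplit tumor libraries in column 2. The day 11 libraries lay in column 3. Day therefore cannot be told apart from plate column.

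Each library held 3375558 to 10211060 reads, of which 26.9% to 45.7% fell on 1 ribosomal RNA gene and 2.89% to 12.1% on the mitochondrial genome. Vhl, the deleted gene, had 0 to 32 reads in VHL-deficient libraries and 60 to 280 reads in WT libraries. The 9 marker genes of CD8+ T cells were all tested, and their summed level was 24414 to 72314 scaled counts, while the summed level was 19.8 to 311 for 5 B cell markers, 23.7 to 142 for 7 macrophage markers and 0 to 13.6 for 5 neutrophil markers, except for 728 in WT day 11 replicate 2. VHL-deficient nonTrm replicate 2 stood apart, with the highest share of ribosomal RNA (45.7%). Malat1, an RNA kept in the nucleus, had 34358 scaled counts there and 4839 to 15027 elsewhere. A scaled count is a read count divided by the size factor of its library, and bulk values of this kind cannot tell fewer cells of a type from less RNA per cell. The labels describe the replicates as biological.

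All 77 members had at least 1 read in every library, and the median member had 72 to 271 reads per library. Together they took 0.208% to 0.446% of the reads outside ribosomal RNA and the mitochondrial genome. They lay on 17 chromosomes, with 11 on chromosome 11 and 8 on chromosome 17. Between genes, levels were compared per kilobase of exon, as the mean scaled count over the 22 libraries. Exon length was the union of all annotated exons of a gene, which can exceed the length of its mRNA. The order of genes and classes depends on it. Mrpl18, the homologue of the bacterial protein that binds 5S rRNA, was highest at 348 scaled counts per kilobase. Mrpl54, Mrps23, Mrpl36 and Mrpl28 followed at 244, 225, 214 and 211. Mrps5, Mrpl47, Mrpl48, Mrps10 and Mrpl23 were the 5 lowest by this measure, at 19.1, 15.1, 14.5, 14.3 and 3.74 scaled counts per kilobase. Mrps10 had a mean of 115 scaled counts over 8079 exonic bases, while Mrpl22, which ranks higher, had 40.5 over 981. By class, the median level per kilobase was 63.2 for the 29 large subunit homologues of bacterial proteins, 81.1 for the 21 mitochondria-specific large subunit proteins, 86.5 for the 16 small subunit homologues and 35.5 for the 10 mitochondria-specific small subunit proteins. Mrps36, which carries a ribosomal name but is a subunit of the 2-oxoglutarate dehydrogenase complex, had 23.4. In all, 24 members share exonic bases with another tested gene, 20 of them on the opposite strand, and whether the counting used strand is not given in the sources used here.

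Promoter windows, 250 bases before to 50 bases after the transcription start in RefSeq (build GRCm38.p6), were found for 68 members. Each window was searched on both strands for 5 motifs. The ETS family motif CCGGAAG, which the factor GABP binds, was present in 25 members (36.8%), against 21.3% of the 9321 tested genes with a window and 8.86% of all 32851 windows. The YY1 motif AAGATGGCG was in 8 members (11.8%), against 3.77% of tested genes and 1.40% of all windows. The NRF1 motif, GCGC and GCGC with any 2 bases between them, was in 14 members (20.6%), against 15.5% of tested genes and 6.23% of all windows. The E-box CACGTG was in 5 members (7.35%), against 11.9% of tested genes and 7.15% of all windows. The core ACGTG that hypoxia-inducible factors can bind, and which lies inside every CACGTG, was in 16 members (23.5%), against 29.5% of tested genes and 19.6% of all windows. The windows below belong to the 4 genes on which the results turn: Mrps18b had the smallest adjusted p between genotypes in Trm cells, Mrps22 was the member called at day 11, Mrpl12 is the stalk protein called in 2 comparisons, and Mrps6 differed most between groups. They lie on the minus strand at chr17:35916391-35916690 for Mrps18b and chr9:98601630-98601929 for Mrps22, and on the plus strand at chr11:120484387-120484686 for Mrpl12 and chr16:92058086-92058385 for Mrps6. Capitals mark the ETS motif in Mrps18b, where it reads as its reverse complement, and in Mrps22, and the NRF1 motif in Mrpl12. In the Mrps6 window none of the 5 letter strings was found.
Mrps18b: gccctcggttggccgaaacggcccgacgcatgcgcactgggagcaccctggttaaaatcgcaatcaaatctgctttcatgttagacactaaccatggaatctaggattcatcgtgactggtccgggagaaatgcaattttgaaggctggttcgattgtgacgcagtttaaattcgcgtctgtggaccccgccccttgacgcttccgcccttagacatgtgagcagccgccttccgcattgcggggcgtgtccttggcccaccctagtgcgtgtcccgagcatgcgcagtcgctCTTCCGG
Mrps22: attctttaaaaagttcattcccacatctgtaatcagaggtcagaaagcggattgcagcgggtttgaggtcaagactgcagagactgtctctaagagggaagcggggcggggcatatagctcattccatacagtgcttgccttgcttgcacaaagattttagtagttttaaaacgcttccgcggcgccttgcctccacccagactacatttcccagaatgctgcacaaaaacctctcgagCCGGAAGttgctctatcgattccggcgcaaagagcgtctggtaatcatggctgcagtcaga
Mrpl12: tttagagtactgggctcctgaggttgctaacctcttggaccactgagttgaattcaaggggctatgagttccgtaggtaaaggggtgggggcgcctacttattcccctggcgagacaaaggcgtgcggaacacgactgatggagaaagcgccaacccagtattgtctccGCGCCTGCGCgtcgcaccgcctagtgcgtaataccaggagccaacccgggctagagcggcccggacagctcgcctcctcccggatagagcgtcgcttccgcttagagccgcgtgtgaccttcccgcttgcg
Mrps6: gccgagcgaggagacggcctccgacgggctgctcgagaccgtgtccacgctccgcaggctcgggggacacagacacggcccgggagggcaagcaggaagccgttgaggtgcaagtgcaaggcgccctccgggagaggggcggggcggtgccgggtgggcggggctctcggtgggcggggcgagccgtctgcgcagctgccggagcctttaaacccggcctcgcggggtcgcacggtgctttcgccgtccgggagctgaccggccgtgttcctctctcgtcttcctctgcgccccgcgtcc

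In Trm cells, VHL-deficient libraries held less mRNA for 14 of the 77 proteins and more for none, against 5.03% of all genes tested called lower and 5.07% called higher. Their summed level was 13584 and 9435 scaled counts in VHL-deficient Trm libraries, against 24728 and 16387 in WT Trm libraries, so both VHL-deficient libraries lay below both WT libraries. The fold change was below 0 for 74 members, with a median log2 fold change of -0.86 over the members and 0.09 over all genes tested. Both VHL-deficient libraries were below both WT libraries for 56 members, where the share over all genes was 25.0%. Called means an adjusted p under 0.05 in limma, with Benjamini-Hochberg adjustment over the 14327 genes, and every adjusted p below comes from that fit.

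**Figure D1:**
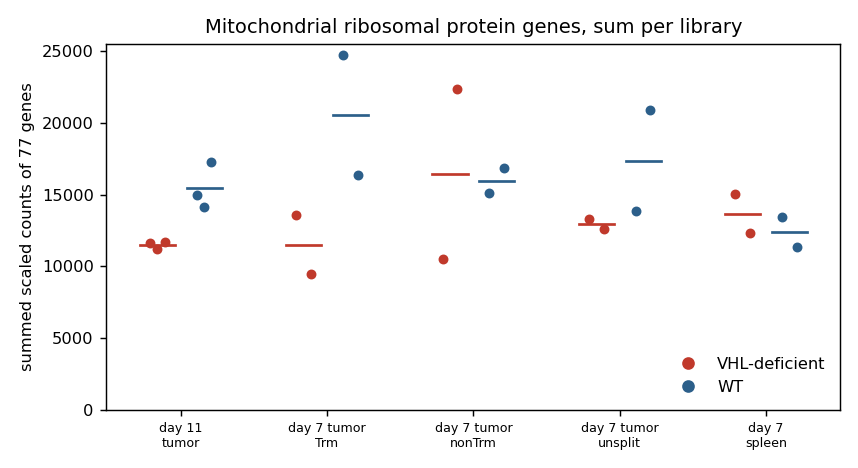
Summed scaled counts of the 77 mitochondrial ribosomal protein genes in each library (points) with group means (lines), VHL-deficient in red and WT in blue, by sorted population. The VHL-deficient libraries lie below the WT libraries at day 11 and in Trm cells, and the replicates of VHL-deficient nonTrm cells lie far apart (10506 and 22352).

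Of the 14 genes, 4 belong to the small subunit. Mrps18b, a mitochondria-specific paralogue of bacterial S18, had 52.3 and 46.6 scaled counts in VHL-deficient Trm libraries, against 169 and 129 in WT Trm libraries. The groups did not overlap, and the means were 49.5 ± 4.07 and 149 ± 28.5 (SD, n = 2 each). Its log2 fold change was -1.56 (SE 0.35, limma adjusted p = 0.00732). The other paralogues were not called: Mrps18a, which sits in the large subunit, had a log2 fold change of -0.83 (limma adjusted p = 0.135) and Mrps18c had -1.05 (limma adjusted p = 0.176). Mrps5, the homologue of bacterial S5 at the entry of the mRNA channel, had 78.5 and 73.0 scaled counts in VHL-deficient Trm libraries, against 174 and 156 in WT Trm libraries. Replicates lay close together in both groups, and the log2 fold change was -1.11 (SE 0.28, limma adjusted p = 0.0153). Mrps28, the counterpart of bacterial S1, had 39.8 and 17.1 scaled counts in VHL-deficient Trm libraries, against 103 and 86.2 in WT Trm libraries, the largest fold change of the 14 (log2 -1.81, SE 0.52, limma adjusted p = 0.0316). Mrps17, the homologue of bacterial S17, fell by 0.98 on the log2 scale (limma adjusted p = 0.0451).

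The other 10 belong to the large subunit, and 9 of them are homologues of bacterial proteins. Mrpl20, whose bacterial homologue acts early in assembly of the large subunit, had 196 and 128 scaled counts in VHL-deficient Trm libraries, against 526 and 315 in WT Trm libraries. The groups did not overlap although the WT libraries differed from each other, and the log2 fold change was -1.36 (SE 0.31, limma adjusted p = 0.00791). Mrpl16, which in bacteria lies near the peptidyl transferase centre, had 116 and 59.8 scaled counts in VHL-deficient Trm libraries, against 269 and 245 in WT Trm libraries (log2 fold change -1.61, SE 0.39, limma adjusted p = 0.0125). Mrpl1, the protein of the mobile L1 stalk by which spent tRNA leaves, had 52.3 and 56.7 scaled counts in VHL-deficient Trm libraries, against 158 and 135 in WT Trm libraries. Replicates agreed closely in VHL-deficient cells, and the log2 fold change was -1.41 (SE 0.36, limma adjusted p = 0.0167). On the other stalk, which recruits translation factors, Mrpl12 and Mrpl11 were called of 3 members tested. Mrpl12 had 221 and 127 scaled counts in VHL-deficient Trm libraries, against 513 and 332 in WT Trm libraries (log2 fold change -1.30, limma adjusted p = 0.0392). Mrpl11 had 71.2 and 58.2 scaled counts in VHL-deficient Trm libraries, against 227 and 136 in WT Trm libraries (log2 fold change -1.43, limma adjusted p = 0.0401). Both stalk genes showed no overlap between genotypes, and their partner Mrpl10 had a log2 fold change of -0.52 (limma adjusted p = 0.273).

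Mrpl13 (log2 fold change -1.56), Mrpl18 (-1.35), Mrpl19 (-1.15), Mrpl2 (-1.18) and Mrps30 (-0.89) complete the 14, with limma adjusted p of 0.0167 to 0.0387. Mrpl13, Mrpl18, Mrpl19 and Mrpl2 are homologues of the bacterial proteins of the same number. Mrps30, despite its name, is a mitochondria-specific protein of the large subunit, and had 203 and 185 scaled counts in VHL-deficient Trm libraries, against 404 and 320 in WT Trm libraries. By class, 9 of 29 large subunit homologues of bacterial proteins were called lower (median log2 fold change -1.07), 1 of 21 mitochondria-specific large subunit proteins (-0.69), 3 of 16 small subunit homologues (-0.97) and 1 of 10 mitochondria-specific small subunit proteins (-0.85). No difference between classes was tested. None of the 6 proteins of the tunnel exit was called (median log2 fold change -0.63), among them Mrpl24 at 0.02 and Mrpl22 at -1.47 (limma adjusted p = 0.0706). Mrps36, the enzyme complex subunit, had 17.8 and 28.0 scaled counts in VHL-deficient Trm libraries, against 63.5 and 35.1 in WT Trm libraries, and was not called (limma adjusted p = 0.205). The count of 14 called members was 0 without VHL-deficient Trm replicate 2, 0 without WT Trm replicate 1, and 32 without VHL-deficient nonTrm replicate 1 or without replicate 2 (8.61% and 8.57% of all genes called lower). WT Trm replicate 1 was high for cytosolic ribosomal proteins as well, at 395341 scaled counts in sum against 244706 in replicate 2, and the part of this in the result was not tested.

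**Figure D2:**
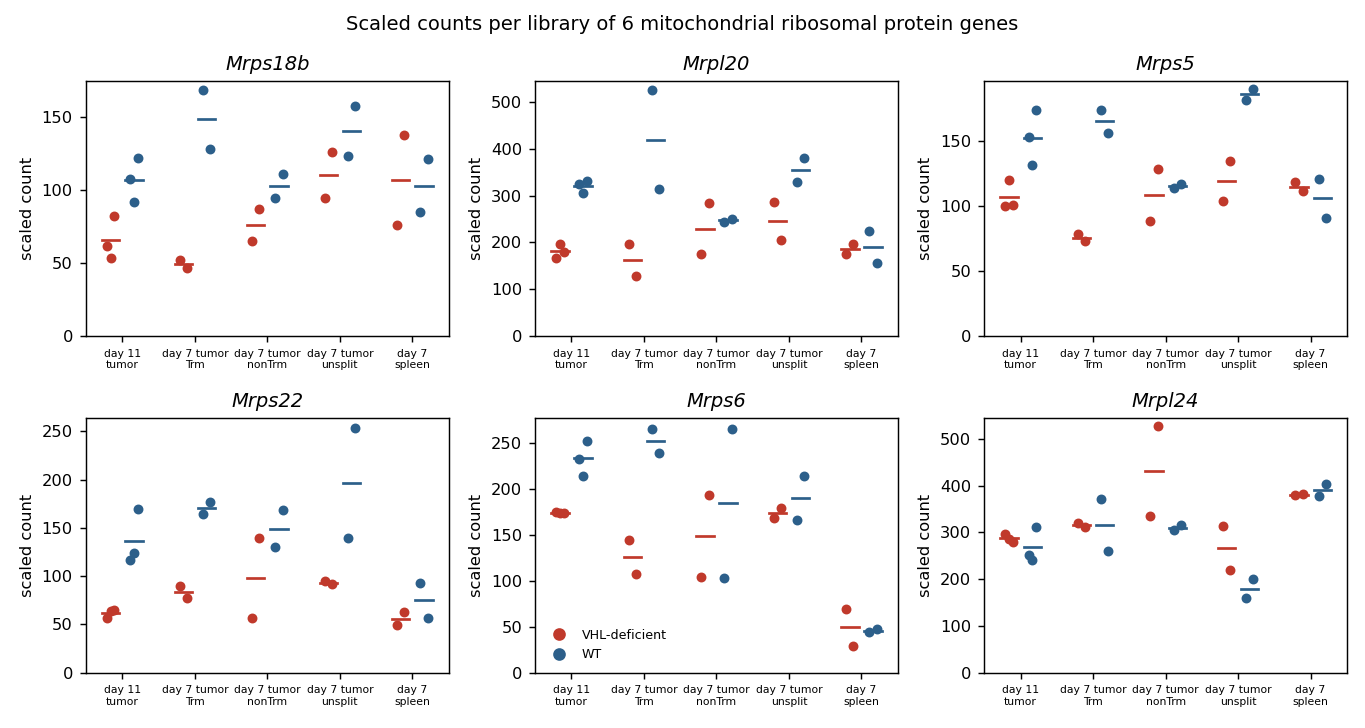
Scaled counts per library (points) and group means (lines) of 6 members in 5 sorted populations, VHL-deficient in red and WT in blue. Mrps18b and Mrps5 show separated genotypes in Trm cells, Mrps22 at day 11, and Mrps6 is low in spleen in both genotypes. Mrpl24 is higher in spleen than in unsplit day 7 tumor libraries, and its highest value is in VHL-deficient nonTrm replicate 2.

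At day 11, tumor cells showed the same direction with smaller fold changes. The summed level was 11620, 11209 and 11680 scaled counts in VHL-deficient libraries, against 14962, 14147 and 17254 in WT libraries, with no overlap. The median log2 fold change was -0.40 over the members and 0.07 over all genes, and 72 members had a fold change below 0. All VHL-deficient libraries lay below all WT libraries for 45 members, where the share over all genes was 17.9%. Called lower was 1 member (2.39% of all genes) and called higher was none (4.47% of all genes), while 13 members were lower at an unadjusted p under 0.05.

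The called gene was Mrps22, a mitochondria-specific small subunit protein whose mutation in humans causes mitochondrial disease. It had 56.9, 63.8 and 64.8 scaled counts in VHL-deficient day 11 libraries, against 117, 124 and 170 in WT day 11 libraries. The groups did not overlap, and the means were 61.8 ± 4.30 and 137 ± 28.7 (SD, n = 3 each), a log2 fold change of -1.11 (SE 0.32, limma adjusted p = 0.0381). The next members were not called. Mrpl20 had 167, 196 and 180 scaled counts in VHL-deficient day 11 libraries, against 325, 306 and 332 in WT day 11 libraries (limma adjusted p = 0.0514). Its genotypes were as cleanly separated as those of Mrps22, at a log2 fold change of -0.82. Mrpl18 had 338, 258 and 267 scaled counts in VHL-deficient day 11 libraries, against 540, 474 and 657 in WT day 11 libraries (log2 fold change -0.95, limma adjusted p = 0.0578). Mrpl2 and Mrpl3, homologues of the bacterial proteins of the same number near the centre of the large subunit, had log2 fold changes of -0.85 and -0.65 (limma adjusted p of 0.0847 and 0.0959). WT day 11 replicate 2 was the library with 728 scaled counts of neutrophil markers, and without it the median of the members was -0.47. The call of Mrps22 was lost when any 1 of the 6 day 11 libraries was left out, and also without either unsplit VHL-deficient day 7 tumor library. The count of called members also moved when a Trm library or a VHL-deficient nonTrm library, none of them in this comparison, was left out. Such counts are not read as results about the members. With only the 6 day 11 libraries in the fit, 15 members were called lower (8.84% of all genes).

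Of the 56 members separated in Trm cells, 37 were also separated downward at day 11, where they made up 37 of 45. Over all genes, 1795 were separated downward in both, 50.2% of those separated in Trm cells and 69.9% of those separated at day 11. In unsplit day 7 tumor cells no member was called by limma (0.223% of all genes called lower, 1.68% higher) or by limma-voom. The summed level was 13297 and 12575 scaled counts in VHL-deficient unsplit libraries, against 13862 and 20865 in WT unsplit libraries. The median log2 fold change was -0.41 (0.03 over all genes), 71 members had a fold change below 0 and 36 were lower in both VHL-deficient libraries than in both WT libraries, where the share over all genes was 23.6%. At an unadjusted p under 0.05, 4 were lower and 0 higher. Mrps22 came first again, with 94.7 and 91.4 scaled counts in VHL-deficient unsplit libraries, against 140 and 254 in WT unsplit libraries (log2 fold change -1.01, limma adjusted p = 0.244). In all, 70 members had a fold change below 0 in Trm, day 11 and unsplit day 7 tumor cells alike.

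In nonTrm cells no member was called by limma (0.67% of all genes called lower, 1.65% higher) or by limma-voom, and at an unadjusted p under 0.05, 4 were lower. The median log2 fold change was -0.14 and 48 members had a fold change below 0. The summed level was 10506 and 22352 scaled counts in VHL-deficient nonTrm libraries, against 15129 and 16825 in WT nonTrm libraries, so the VHL-deficient libraries lay on either side of the WT libraries. The cytosolic ribosomal protein sum of the same VHL-deficient libraries was 101041 and 338331. Without VHL-deficient nonTrm replicate 1, 4 members were called higher (5.26% of all genes) and 2 lower (8.68%), and the median turned to 0.40, while without replicate 2 it was -0.62. In spleen the direction was not shared. There 47 members had a fold change above 0, the median was 0.13 and no member was called by limma (2.44% of all genes called higher, 0.733% lower) or by limma-voom, with 3 higher and 1 lower at an unadjusted p under 0.05. The summed level in spleen was 15010 and 12326 scaled counts in VHL-deficient libraries, against 13430 and 11356 in WT libraries, which overlap.

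**Figure D3:**
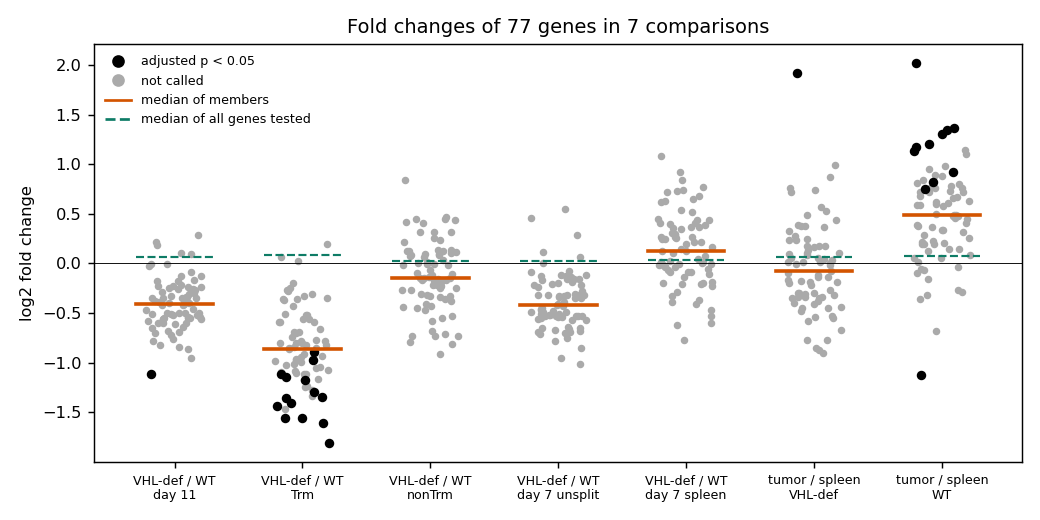
Log2 fold changes of the 77 members (points) in 5 comparisons of VHL-deficient with WT cells and 2 of tumor with spleen cells at day 7, with called members in black, the median of the members in orange and the median of all genes tested as a dashed green line. The members sit below the dashed line in Trm (median -0.86), day 11 (-0.40) and unsplit day 7 (-0.41) comparisons and above it for tumor over spleen in WT cells (0.49).

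Tumor cells of day 7 were compared with spleen cells of the same day and plate column within each genotype. In WT cells 10 members rose and 1 fell, against 13.2% of all genes called higher and 8.31% called lower, so the share of members called higher was close to that of all genes. The median log2 fold change was 0.49 over the members and 0.08 over all genes, 66 members had a fold change above 0, and 41 were higher in both tumor libraries than in both spleen libraries, where the share over all genes was 33.1%. In VHL-deficient cells 1 member rose and none fell, against 9.98% and 5.47% of all genes, and the median was -0.07 (0.09 without VHL-deficient spleen replicate 1). The interaction of genotype and tissue had a median log2 value of -0.51 over the members and none was called by limma (0.0698% of all genes called) or by limma-voom, with 3 lower at an unadjusted p under 0.05.

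Mrps6, the homologue of bacterial S6 in the small subunit, was the gene called in both genotypes. It had 169 and 180 scaled counts in VHL-deficient tumor libraries, against 69.3 and 29.5 in VHL-deficient spleen libraries, a log2 fold change of 1.92 (SE 0.40, limma adjusted p = 0.00257). In WT cells it had 167 and 214 scaled counts in tumor libraries, against 44.5 and 47.1 in spleen libraries, a log2 fold change of 2.02 (SE 0.40, limma adjusted p = 0.00133). Tumor and spleen libraries did not overlap in either genotype. Mrps6 shares 159 exonic bases, 10.4% of its exons, on the same strand with Slc5a3, the myo-inositol transporter. Slc5a3 rose as well, by a log2 fold change of 2.37 in VHL-deficient cells (limma adjusted p = 4.54e-04) and 1.17 in WT cells (limma adjusted p = 0.0466), and its part in the Mrps6 reads was not tested. The genotype direction differed between these neighbours at day 11. Mrps6 had 175, 174 and 175 scaled counts in VHL-deficient day 11 libraries, against 233, 215 and 252 in WT libraries, and Slc5a3 had 582, 689 and 620 in VHL-deficient libraries, against 301, 377 and 330 in WT libraries. Neither was called there. The Mrps6 call in VHL-deficient cells was lost without VHL-deficient spleen replicate 2 and held in the other alternatives run. The count of called members in VHL-deficient cells also moved without either VHL-deficient nonTrm library or without WT Trm replicate 2, which are not in this comparison.

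Beyond Mrps6, the members that rose in WT tumor cells were Mrpl45, Mrps22, Mrpl13, Mrps27, Mrpl12, Mrpl20, Mrps5, Mrps30 and Mrpl17, with log2 fold changes of 0.75 to 1.36 and limma adjusted p of 0.0114 to 0.0456. Mrpl45, a mitochondria-specific protein at the tunnel exit that tethers the ribosome to the inner membrane, had 289 and 428 scaled counts in WT tumor libraries, against 189 and 107 in WT spleen libraries. Mrps22 had 140 and 254 scaled counts in WT tumor libraries, against 93.2 and 56.6 in WT spleen libraries. Mrps27, a pentatricopeptide repeat protein of the small subunit, had 142 and 188 scaled counts in WT tumor libraries, against 51.5 and 101 in WT spleen libraries. Each of these genes was separated between tissues while its replicates differed widely. Of the 14 members that fell in VHL-deficient Trm cells and the 10 that rose in WT tumor cells, 5 were the same: Mrpl12, Mrpl13, Mrpl20, Mrps5 and Mrps30. Over all genes the corresponding overlap was 428, which is 59.4% of the 720 called lower in Trm cells and 22.7% of the 1889 called higher in WT tumor cells.

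The member that fell was Mrpl24, a homologue of bacterial L24 at the tunnel exit. It had 159 and 200 scaled counts in WT tumor libraries, against 377 and 402 in WT spleen libraries, with means of 180 ± 28.8 and 390 ± 17.8 (SD, n = 2 each) and a log2 fold change of -1.12 (SE 0.27, limma adjusted p = 0.00509). Mrpl24 shares 594 exonic bases, 26.3% of its exons, with Rrnad1 on the opposite strand, and Rrnad1 was not called. Its call was lost only with the fit restricted to the 4 libraries compared, among the alternatives run. The total of 11 called members was smaller without WT tumor replicate 2 or without either WT spleen library, and larger without either VHL-deficient nonTrm library. Counts with 1 library left out are not read as results about the members. Over all settings the median log2 fold change of the members ranged from 0.23 to 0.86. Beside this comparison, the summed level of the 7 macrophage markers was 51.3 to 77.6 scaled counts in WT tumor libraries and 23.7 to 32.5 in WT spleen libraries, and that of the 5 B cell markers was 31.6 to 44.7 in WT tumor libraries and 108 to 180 in WT spleen libraries. No marker of either list was at 0 in all libraries, and their part in the result was not tested.

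Trm cells were compared with nonTrm cells within each genotype, in the same plate column. No member was called in either genotype by limma (0.00698% of all genes called in VHL-deficient cells, 0.3% in WT cells) or by limma-voom. In VHL-deficient cells 70 members had a fold change below 0 in Trm cells and the median log2 fold change was -0.44. In WT cells 69 members had a fold change above 0, the median was 0.36, and 28 were higher in both Trm libraries than in both nonTrm libraries (21.5% of all genes). Mrpl20 had the smallest p in WT cells, with 526 and 315 scaled counts in Trm libraries, against 244 and 250 in nonTrm libraries (log2 fold change 0.72, limma adjusted p = 0.371). Its WT Trm replicates differed from each other by more than the means of the WT groups did. For the interaction of genotype and subset the median log2 value was -0.77, no member was called by limma (0.0% of all genes) or by limma-voom, 11 were lower at an unadjusted p under 0.05, and Mrpl13 had the smallest p (log2 value -1.69, limma adjusted p = 0.547). Without VHL-deficient nonTrm replicate 1, 26 members were called in the VHL-deficient comparison, 25 of them lower in Trm cells (6.46% of all genes), and 22 in the interaction, all lower (4.54% of all genes), and the medians were -1.003 and -1.33. Without VHL-deficient nonTrm replicate 2, the library that stood apart, no member was called in either, the median in VHL-deficient cells turned to 0.13 and that of the interaction was -0.26. Day 11 tumor cells were set against unsplit day 7 tumor cells, and no member or other gene was called by limma in either genotype (0.0% of all genes) nor a member by limma-voom. The median log2 fold change over members was -0.15 in VHL-deficient and -0.15 in WT cells, but 0.15 in WT cells without WT unsplit tumor replicate 2 and -0.44 without replicate 1, with 2 members lower in VHL-deficient cells and 1 higher in WT cells at an unadjusted p under 0.05. No member was called in the interaction of genotype and day by limma (0.0% of all genes) or limma-voom, and none had an unadjusted p under 0.05.

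Across the 10 groups, 51 of the 77 members had their highest mean in WT Trm cells. The lowest mean was in VHL-deficient Trm cells for 24 members, in VHL-deficient day 11 cells for 17 and in WT spleen for 15. WT Trm replicate 1 had the highest summed level of all libraries (24728 scaled counts). WT Trm replicate 2 had 16387, below WT unsplit tumor replicate 2 (20865). These ranks also run across plate columns, and no share over all genes is given for them. The SD of a member's log2 group means ranged from 0.20 to 0.87 with a median of 0.35, and Mrps6 was at the top with a range of 2.45 between its highest and lowest group. Over the 22 libraries, the correlation of a member's log2 value with the mean of the other members had a median Pearson's r of 0.79 and a maximum of 0.95. Mrpl50 (-0.12), Mrpl24 (0.03), Mrpl23 (0.08) and Mrps27 (0.22) were lowest, and Mrpl23 was also the member with the fewest scaled counts, 7.29 to 32.3. These correlations are descriptions over libraries that share groups and depth. Over the same 22 libraries the log2 sums of mitochondrial and of cytosolic ribosomal proteins had r = 0.97, and the deviations of the sums from their group means had r = 0.98. In all, 20 members were called in at least 1 of the 14 comparisons, 7 in at least 2, and 57 in none. Of all genes tested, 33.8% were called in at least 1 comparison and 16.5% in at least 2.

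The other parts of the mitochondrial gene expression system were read beside the ribosome. For the mRNAs of the mitochondrial genome, which the mitochondrial ribosome translates, 12 genes were listed. Among them mt-Atp6, mt-Atp8, mt-Co2 and mt-Co3 had 0 or 1 reads in each library, and the reason was not tested. The other 8 were tested. Of these 8, 7 fell at day 11 (median log2 fold change -1.41), 6 in Trm cells (-1.63), 2 in unsplit day 7 tumor cells (-1.26), 2 in nonTrm cells (-0.999) and 0 in spleen (-0.18). In Trm cells mt-Nd5 and mt-Nd4, subunits of complex I, had log2 fold changes of -1.83 and -1.28 (limma adjusted p of 7.91e-04 and 0.00236), and mt-Cytb of complex III had -1.83 (limma adjusted p = 0.00136). The 12S RNA, mt-Rnr1, fell by 1.42 at day 11 (limma adjusted p = 0.0107). In Trm cells mt-Rnr1 had a log2 fold change of -1.24 (limma adjusted p = 0.0535). The 16S RNA, mt-Rnr2, was not called in any comparison, although its fold changes between genotypes were below 0 as well. The median log2 fold change of these 2 RNAs was -1.54 at day 11 and -1.36 in Trm cells.

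Among 14 translation factors, Oxa1l, the insertase that places new chains in the inner membrane, fell by 1.02 on the log2 scale at day 11 (limma adjusted p = 0.00795) and fell by 1.00 in Trm cells (limma adjusted p = 0.0249). Tsfm, elongation factor Ts, fell by 1.36 in Trm cells (limma adjusted p = 0.0446). Among 22 assembly genes, Noa1, a GTPase needed for the small subunit, fell by 1.56 and Mrm3, a methyltransferase of the 16S RNA, fell by 1.84 in Trm cells (limma adjusted p of 0.00159 and 0.00714). None of the 6 genes of mitochondrial transcription was called between genotypes. Of 9 tested regulators of mitochondrial biogenesis, the transcription factor Myc fell by 1.32 in Trm cells (limma adjusted p = 0.0199) and the coregulator Hcfc1 fell by 0.81 in Trm cells and fell by 0.61 at day 11 (limma adjusted p of 0.0203 and 0.0404). Myc had 111 and 204 scaled counts in VHL-deficient Trm libraries, against 334 and 430 in WT Trm libraries.

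For tumor over spleen in WT cells, Dap3, the small subunit GTP-binding protein that the name rule leaves out, rose by 1.04 on the log2 scale (limma adjusted p = 0.00596). Slirp, which stabilises mitochondrial mRNA, rose by 2.51 and Gfm2, a ribosome recycling factor, fell by 1.08. Fastkd2 and Rcc1l, which act on the 16S RNA, rose by 1.58 and 1.59 and their partner Ngrn fell by 1.14, with limma adjusted p of 0.0129 to 0.0318 for these 5 genes. In VHL-deficient cells Dap3 rose by 1.00 and Fastkd2 by 1.38, while Ngrn fell by 1.48, the helicase Ddx28 fell by 1.14 and the 16S RNA methyltransferase Mrm2 fell by 1.80, with limma adjusted p of 0.00432 to 0.0411. The assembly GTPase Gtpbp10 was called higher too, at 27.1 and 27.6 scaled counts in VHL-deficient tumor libraries, against 0 and 18.05 in VHL-deficient spleen libraries, so 1 library listed at 0 stands behind that call and no fold is given. In all, 2 of the 22 assembly genes were called higher and 3 lower in VHL-deficient cells, and 2 higher and 1 lower in WT cells, where 9.98% and 13.2% of all genes were called higher and 5.47% and 8.31% lower. Of the regulators, Gabpb1, a subunit of GABP, rose by 1.38 and the coactivator Ppargc1b fell by 3.13 in VHL-deficient tumor cells (limma adjusted p of 0.00410 and 0.0112). Ppargc1b had 1.35 and 4.73 scaled counts in VHL-deficient tumor libraries, from 1 and 6 reads, against 31.3 and 31.2 in VHL-deficient spleen libraries. The size of its fold therefore rests on few reads.

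**Figure D4:**
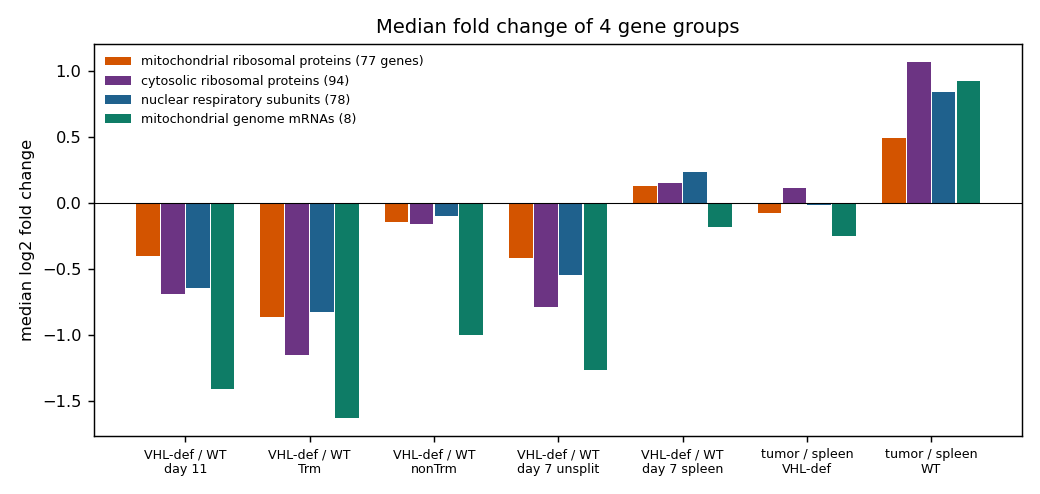
Median log2 fold change of 4 gene groups (bars) in 5 comparisons of VHL-deficient with WT cells and 2 of tumor with spleen cells at day 7. In Trm cells the medians are -0.86 for mitochondrial ribosomal proteins, -1.15 for cytosolic ribosomal proteins, -0.83 for nuclear respiratory subunits and -1.63 for mitochondrial genome mRNAs.

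Cytosolic ribosomal proteins and nuclear-encoded respiratory chain subunits had medians of the same sign as the mitochondrial ribosomal proteins in the 5 genotype comparisons and for tumor over spleen in WT cells. In Trm cells 17 of 94 cytosolic ribosomal protein genes and 8 of 78 respiratory subunit genes were called lower, with medians of -1.15 and -0.83. Of all genes, 5.03% were called lower there. At day 11, 1 and 4 were called lower (medians -0.69 and -0.64), against 2.39% of all genes. For tumor over spleen in WT cells 24 and 10 were called higher (medians 1.07 and 0.83), against 13.2% of all genes. The share of respiratory subunit genes called there was close to that of all genes. In VHL-deficient cells the medians for tumor over spleen were 0.11 and -0.02, beside -0.07 for the mitochondrial ribosomal proteins. Genes of cell division are given beside them. Of 20 such genes, 16 were called lower in Trm cells (median -2.28), 15 at day 11 (-2.08), 1 in nonTrm cells and 0 in spleen. In unsplit day 7 tumor cells 0 were called, although all 20 had a fold change below 0. In tumor over spleen 19 were called higher in VHL-deficient cells (median 2.88) and 20 in WT cells (3.23). The medians of cell division genes and mitochondrial ribosomal proteins shared their sign in unsplit day 7 (-0.91 and -0.41) and nonTrm cells (-1.32 and -0.14). This also held for Trm over nonTrm in WT cells (1.91 and 0.36) and for the interaction of genotype and subset (-1.03 and -0.77). The signs differed for tumor over spleen in VHL-deficient cells, where the mitochondrial ribosomal protein median was -0.07 (-0.26 to 0.09 over all settings). In spleen the genotype median was -0.70 for cell division genes and 0.13 for mitochondrial ribosomal proteins. For Trm over nonTrm in VHL-deficient cells the medians were 0.94 and -0.44, the latter ranging from -1.003 to 0.13 over all settings. The part of cell division in the levels of the mitochondrial ribosomal proteins was not tested.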

How the data were processed

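RNA was sequenced from 22 libraries of sorted CD8+ T cells. Per the submitters' processing notes the tools were STAR, featureCounts and DESeq, with the genome build mm10, without versions. The table deposited by the authors holds 1 signal value per gene and library, 46297 rows. After subtracting 1, all values (100%, tolerance 0.01 reads) were whole multiples of a step that each library had in common, so the signal is a read count divided by a size factor, plus 1. Depth is the total of the reads this gives, and short or low genes have few reads, which limits their precision. Groups followed the labels, where V was read as VHL-deficient.

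The 14327 genes reaching 10 scaled counts in 2 or more libraries were tested on the log2 scale of the scaled count plus 1 with limma 3.58.1 in R 4.3.3, a model of 10 group means with 12 residual degrees of freedom and a mean-variance trend. Fold changes on this scale understate changes of low genes. The pseudocount of 1 is the authors' own. Adjusted p-values are Benjamini-Hochberg over all genes tested. The fit was also run on simulated counts with known changes in the day 11 genotype comparison only. The spread of those counts was set and not taken from these libraries. Comparisons with 2 libraries per group were not examined there, so the simulation cannot speak for them. Members are described by counts and medians beside those of all genes, with no test of the set. Gene positions and exon lengths come from GENCODE M21 (GRCm38), promoters from RefSeq. Named genes are the called members, up to 12 per direction by adjusted p (all 14 in Trm cells are given), the levels per kilobase at both ends, S18 paralogues, stalk and tunnel exit proteins, Mrps36, and up to 4 called genes of each related list. Other members were named after their values were seen. The members, lists and tests were chosen with earlier results of these data known. Alternatives were other scalings, filters, pseudocounts, spread models and library omissions.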

Additional observations from a re-analysis of the deposited data

How the results depend on the processing

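Calls were few per comparison and moved with the spread model. At day 11, where 1 member was called between genotypes, the count was 3 with TMM scaling, 0 with no filter on low values, 2 with a filter of 50, 2 with a pseudocount of 5, 0 without the mean-variance trend, 15 with library weights, 15 with only the groups compared and 3 with limma-voom on the recovered reads. In Trm cells the count of 14 was 6 with no filter, 6 without the trend, 0 with only the groups compared and 23 with limma-voom. For tumor over spleen in VHL-deficient cells the count of 1 was 4 with library weights and 5 with only the groups compared, and in WT cells the count of 11 was 7 with TMM scaling, 5 with no filter, 7 without the trend, 1 with only the groups compared and 6 with limma-voom. The cause was not tested. Fits of only the groups compared hold fewer libraries and residual degrees of freedom. In those fits 8.84% of all genes were called lower at day 11 and 2.16% in Trm cells. For tumor over spleen, 13.3% were called higher and 7.89% lower in VHL-deficient cells, and 4.96% and 2.9% in WT cells. Shares over all genes are not given for the other settings, so those counts show only how calls moved.

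Leaving out 1 library at a time gave 0 to 5 called members at day 11, 0 to 32 in Trm cells, 0 to 6 in nonTrm cells, 0 to 3 for tumor over spleen in VHL-deficient cells and 2 to 17 in WT cells, 0 to 26 for Trm over nonTrm in VHL-deficient cells and 0 to 22 for the interaction of genotype and subset. The other 7 comparisons stayed at 0. A library left alone in its group is assumed to vary like the other groups. Counts with 1 library left out therefore show dependence on single libraries and are not read as results about the members. No call changed direction: over the alternatives, called members kept their call in 689 results and lost it in 202. Median log2 fold changes of the members over all settings ranged from -1.11 to -0.63 in Trm cells, from -0.47 to -0.35 at day 11, from -0.68 to -0.10 in unsplit day 7 cells and from 0.03 to 0.30 in spleen, but from -0.62 to 0.40 in nonTrm cells. They ranged from -1.003 to 0.13 for Trm over nonTrm in VHL-deficient cells, from -1.33 to -0.26 for the interaction of genotype and subset, from -0.26 to 0.09 for tumor over spleen in VHL-deficient cells, from -0.44 to 0.15 for day 11 over day 7 in WT cells and from -0.33 to 0.24 for the interaction of genotype and day.

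Same-numbered day 11 libraries had correlated deviations of 0.04, 0.10 and 0.10 between genotypes. With 2 numbers per group the correlation was 0.24 in Trm, 0.27 in nonTrm, 0.12 in spleen and 0.03 in unsplit day 7 cells. The labels tie no numbers together and not all 3 pairs at day 11 passed 0.1, so the numbers were not read as pairs. With the replicate number as a block, 10 members were called in Trm cells, 7 for tumor over spleen in WT cells, 1 in VHL-deficient cells and 1 at day 11. Trm and nonTrm numbers were correlated at -0.18 and -0.15, and a crossed replicate block, chosen after seeing the data, gave 3 called members at day 11. The planned count test on the recovered reads was not run.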
